A study of Mus musculus with 9 samples.

Results

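The genes described here make and crosslink fibrillar collagen: the type I chains Col1a1 and Col1a2, the type III chain Col3a1, the type V chains Col5a1, Col5a2 and Col5a3, the lysyl oxidases Lox, Loxl1 and Loxl2, and the collagen chaperone Serpinh1. They were taken by gene symbol from a list of names, with no threshold on their values, and all 10 were found among the 18049 genes listed. Their mRNA was measured in 9 clones of MPC, the primary cells grown from pancreatic tumors of WTg mice, with 1 library per clone. The genotype of all 9 was EL1-Luc/EL1-Tag x CAG-Mettl3: an elastase promoter, which is active in pancreatic acinar cells, drove luciferase and the SV40 large T antigen that starts the tumors, and the CAG promoter, which is active in most tissues, drove a Mettl3 transgene. Mettl3 encodes the catalytic subunit of the m6A RNA methyltransferase. Every clone was labelled as fibroblasts from pancreas with treatment none, although a protocol field common to all of them names the PLK1 inhibitor NMS-P937. Each clone was a colony picked with a cloning cylinder after a short culture of minced tumor, and the labels do not say which mouse it came from. With 1 genotype and 1 treatment label, the labels set no groups against each other, so the comparisons below are among clones.

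Fibrillar collagens are made as long precursor chains that fold into triple helices in the endoplasmic reticulum, where Serpinh1 (HSP47) binds the folded helix. After export and trimming, the molecules assemble into fibrils in which type I is the bulk component, type III is mixed in, and small amounts of type V start the fibril and limit its width. Lysyl oxidases then oxidise lysine residues so that neighbouring molecules become covalently crosslinked, which stiffens the fibrous stroma for which pancreatic tumors are known. Fibroblasts and pancreatic stellate cells are the usual source of these transcripts, and macrophages are not.

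The members lie on several chromosomes of the mouse genome (GRCm38.p6). Col3a1 (chr1:45311538-45349706) and Col5a2 (chr1:45374331-45503282) are neighbours 24.6 kb apart, whereas Col1a1 (chr11:94936224-94953042) and Col1a2 (chr6:4505618-4541543), whose products join in 1 molecule, are on different chromosomes. RefSeq promoters were matched for 5 members (Col1a2, Col3a1, Col5a1, Col5a3 and Serpinh1). The 250 bases before the start of Col1a2 (chr6:4505368-4505617, + strand) and Serpinh1 (chr7:99353240-99353489, - strand) are shown because both genes followed Col1a1 closely across clones and kept to it within column prefixes. Capitals mark the letters of the CCAAT box (CCAAT), the GC box (GGGCGG) and the TATA box (TATAAA), searched on either strand, so a match on the opposite strand appears as its reverse complement. No matches overlapped in the windows shown.
Col1a2: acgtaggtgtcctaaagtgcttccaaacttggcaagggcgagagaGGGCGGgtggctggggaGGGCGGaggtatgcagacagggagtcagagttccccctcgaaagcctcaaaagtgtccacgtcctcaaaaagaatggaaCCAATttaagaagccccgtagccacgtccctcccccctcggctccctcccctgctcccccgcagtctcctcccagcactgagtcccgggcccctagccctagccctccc
Serpinh1: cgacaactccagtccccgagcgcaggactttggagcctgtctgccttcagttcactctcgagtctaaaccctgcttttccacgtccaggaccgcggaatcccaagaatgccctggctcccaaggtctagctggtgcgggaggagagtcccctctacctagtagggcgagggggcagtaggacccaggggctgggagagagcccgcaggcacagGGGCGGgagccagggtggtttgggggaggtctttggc
The GC box letters occurred in 4 of the 5 matched promoters (in all but Col3a1) and in 32.7% of the 32851 promoters of the same length. The CCAAT box letters occurred in Col1a2 and Col5a3 and in 33.8% of all promoters. The TATA box letters occurred in Col3a1 and in 12.4% of all promoters. The GC content of these windows was 62.0% in Col1a2, 76.4% in Col5a1, 62.8% in Col5a3, 63.6% in Serpinh1 and 35.2% in Col3a1, against a median of 52.4% over all promoters. These matches describe letters in a window and were not tested as binding sites.

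The libraries held 12198036 to 20453901 reads (median 18082572), so that 3 reads, the limit that a count of 0 allows, were worth 3.79 to 6.56 normalised read counts. Levels are given as normalised read counts, which are not corrected for transcript length, so levels of different genes were not ranked against each other. The columns carry no clone numbers that match the labels, and the libraries are therefore named by the prefix of their column: A (1 library), B1 to B4 and C1 to C4. What the prefixes mean is not stated. Xist was at 29664 to 32912 in the 4 B libraries and at 0 to 8.39 in the others, and the Y-linked Ddx3y was at 0 in B and at 2376 or more elsewhere, so prefix and sex of origin cannot be told apart. Library A also held the most Mettl3, 2184 against 468 to 621 in the other 8 libraries, and was the shallowest.

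All 10 members were expressed far above the counting limit in every clone, and each varied several-fold among clones. Col1a1, the main chain of type I collagen, was lowest in B3 at 37439 normalised read counts, had a median of 82227, and was highest in C2 at 164208. Its partner chain Col1a2 went from 28392 in B3 through a median of 69664 to 131086 in C2. Both type I chains thus had the same lowest and the same highest clone, with a 4.39-fold range for Col1a1 and a 4.62-fold range for Col1a2. The means were 85587 ± 37951 for Col1a1 and 68918 ± 32378 for Col1a2 (SD, n = 9). Col3a1, which forms type III collagen on its own, was at 8942 in B3, at a median of 16444, and at 39946 in A. Col3a1 separated A and C2, at 39946 and 37478, from the other clones, which held 8942 to 24455.

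**Figure D1:**
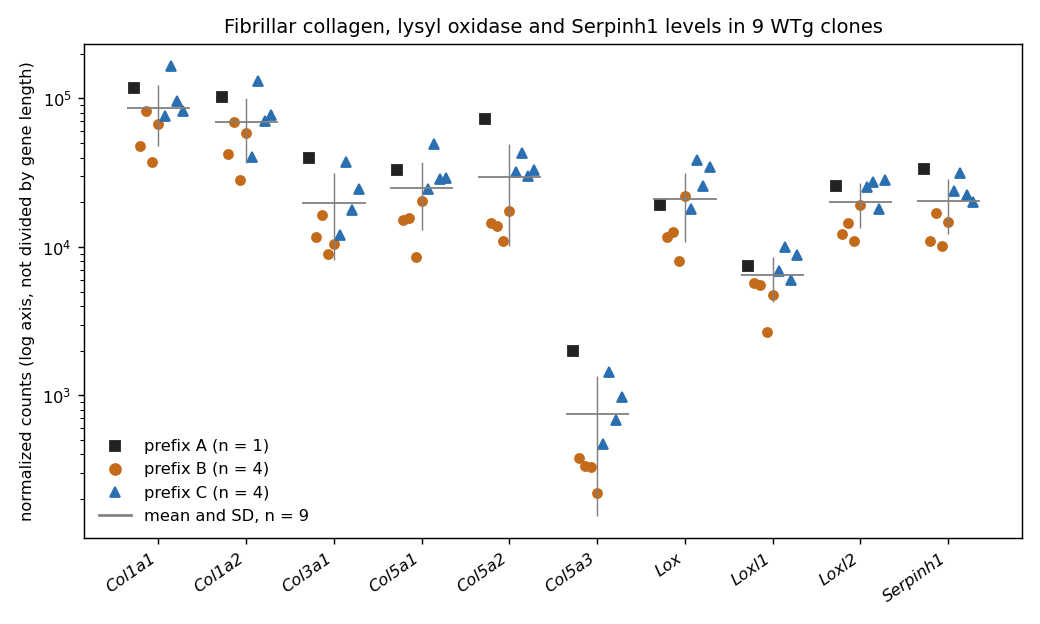
Normalised read counts of each of the 10 members (y axis, log scale) in the 9 libraries, coloured by column prefix, with the mean and SD over libraries. Library B3 is the lowest point for 9 members, and the highest point is C2 for 5 members and A for 4.

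The type V chains had wider ranges than the type I chains. Col5a1, the chain present in nearly all type V molecules, ranged from 8566 in B3 through a median of 24460 to 49481 in C2 (24984 ± 12074, SD, n = 9). Col5a2, its usual partner, was at 73117 in A. The other clones held 14414 (B1), 13900 (B2), 11029 (B3), 17509 (B4), 31755 (C1), 43063 (C2), 30117 (C3) and 32830 (C4). Every C library was therefore above every B library for Col5a2, and A stood above both. Col5a3, a less common chain of the same molecule, had the widest spread, 9.01-fold, from 220 in B4 to 1978 in A, with a median of 467. The lowest of these values rested on 174 reads, for which the exact Poisson 95% interval was 188 to 255 normalised read counts (counting error only). Depth therefore did not limit the contrast between high and low clones even for Col5a3.

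Among the crosslinking enzymes the spread was smaller for Loxl1 and Loxl2 than for Lox. Lox, the founding lysyl oxidase, ranged 4.79-fold, from 8051 in B3 through a median of 19017 to 38596 in C2. Loxl1, known also for crosslinking elastin, ranged 3.71-fold from 2680 in B3 to 9929 in C2 with a median of 5999. Loxl2, which also crosslinks type IV collagen of basement membranes, had the narrowest range of the 10 members, 2.57-fold from 10940 in B3 to 28083 in C4, with a median of 19173. Loxl2 fell into a low set (B1, B2 and B3 at 10940 to 14509) and a high set (A, C1, C2 and C4 at 25145 to 28083), with C3 and B4 between them at 18007 and 19173. Serpinh1 ranged 3.31-fold, from 10172 in B3 through a median of 20093 to 33622 in A. B3 was again the lowest library for each of these 4 genes.

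As a set, the members took 0.498% of all counts in B3 and 2.07% in C2 (1.15 ± 0.494%, SD, n = 9). The SD of log2 levels across the 9 libraries placed each member above the 75th percentile of the 14705 genes that averaged 10 or more normalised read counts, with Col5a3 at percentile 92.5 and Loxl2 at 76.4. The median SD was 0.72 log2 units over the members and 0.25 over those genes. B3 was the lowest library for 9 of the 10 members and for 13.0% of all genes. C2 was the highest for 5 members (Col1a1, Col1a2, Col5a1, Lox and Loxl1) and for 14.6% of genes, and A was the highest for 4 (Col3a1, Col5a2, Col5a3 and Serpinh1) and for 20.0% of genes.

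**Figure D2:**
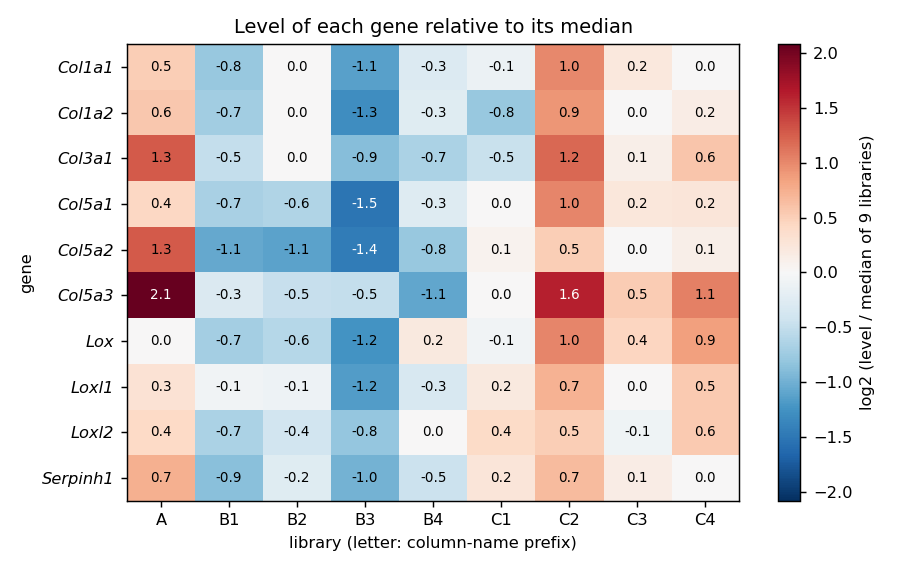
Log2 level of each member relative to that member's median over the 9 libraries (colour and printed value, log2 units), with members in rows and libraries in columns. B3 is below the median for all 10 members and C2 above it for all 10, whereas A is above it for all but Lox, for which A is the median library.

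The column prefixes divided part of the members. All 4 C libraries lay above all 4 B libraries for 5 of 10 members (Col5a1, Col5a2, Col5a3, Loxl1 and Serpinh1), while 4.55% of all genes showed that separation. No member had every B library above every C library, which was the case for 5.74% of genes. The ratio of the C mean to the B mean went from 1.61 for Col1a2 to 2.81 for Col5a3. Col1a1, Col1a2, Col3a1, Lox and Loxl2 overlapped between the prefixes. The summed level of the 11 fibroblast markers described below also divided the prefixes, at 153002 to 239865 in B and 273254 to 336581 in C. That of the 16 macrophage markers overlapped between them. Xist and Ddx3y divide the same libraries, and the part of sex or of batch in these differences cannot be told apart.

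Library A stood apart for some chains only. It held 4.67 times the median of the other 8 libraries for Col5a3, 3.07 times for Col5a2 and 2.82 times for Col3a1. For the type I chains and Col5a1 its excess was smaller, between 1.47 and 1.60 times. For Lox the same ratio was 0.95. A thus combined high levels of Col3a1, Col5a2 and Col5a3 with a Lox level inside the range of the other clones. A single library carries this contrast, so it has no replicate.

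The balance between chains also differed among clones. The ratio of Col1a1 to Col1a2 had a median of 1.18 and stayed within a 1.79-fold range, from 1.06 in C4 to 1.89 in C1. The ratio of Serpinh1 to Col1a1 was the steadiest of those computed, ranging 1.64-fold from 0.193 in C2 to 0.315 in C1. Chaperone and client mRNA therefore kept closer proportions than either gene kept in level. The ratio of Col3a1 to Col1a1 ranged 2.20-fold, from 0.154 in B4 to 0.34 in A. Col5a1 relative to Col5a2 was 0.452 in A and 0.77 to 1.17 in the other clones, so that the excess of Col5a2 in A was not matched by Col5a1. Col5a3 relative to Col5a1 changed most, 5.56-fold from 0.0108 in B4 to 0.0599 in A. Lox relative to Loxl2 ranged 2.0-fold, from 0.715 in C1 to 1.43 in C3. The molar ratio of chains cannot be read from these values, since transcript length was not corrected for.

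**Figure D3:**
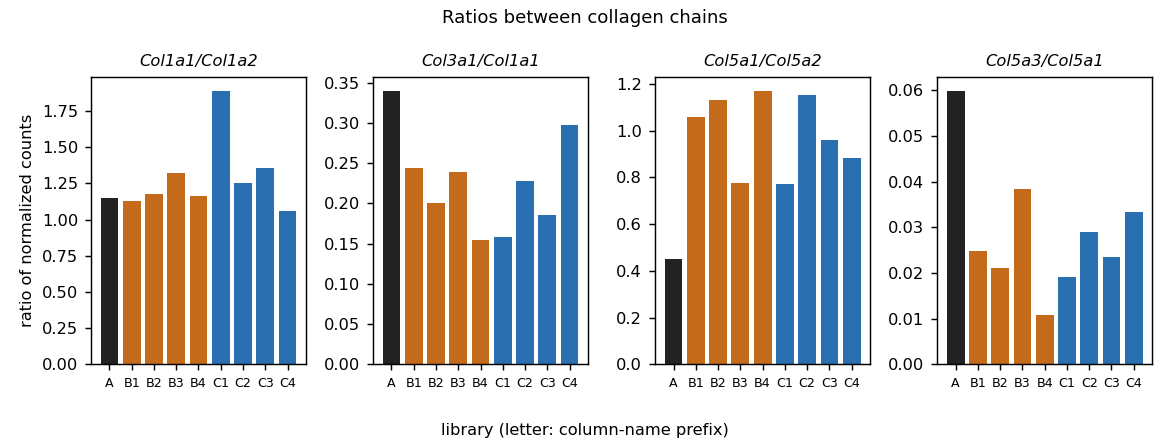
Ratios of normalised read counts (y axes, each starting at 0) for 4 pairs of collagen chains, with 1 bar for each of the 9 libraries, coloured by prefix. C1 has the highest ratio of Col1a1 to Col1a2, and A has the lowest ratio of Col5a1 to Col5a2 and the highest of Col5a3 to Col5a1.

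To ask which genes followed type I collagen from clone to clone, log2 levels were fitted against log2 Col1a1 over all genes. At an adjusted p under 0.05 (limma, Benjamini-Hochberg over 14704 genes), 1965 genes (13.4%) passed, of which 918 (6.24%) rose with Col1a1 and 1047 fell (7.12%). All 9 other members rose. The slope, the log2 change per doubling of Col1a1, was 1.01 ± 0.14 (SE) for Col1a2 with adjusted p = 0.00966. It was 1.08 ± 0.15 for Col5a1 (adjusted p = 0.00837), 1.08 ± 0.20 for Col3a1 (adjusted p = 0.0157) and 1.13 ± 0.27 for Col5a2 (adjusted p = 0.0277). These 4 chains thus changed about in proportion to Col1a1 over all libraries, but with the column prefix as a term the slope of Col5a2 was 0.38. Col5a3 had the steepest and least certain slope, 1.25 ± 0.36, and passed narrowly (adjusted p = 0.0495).

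The enzymes had shallower slopes. Lox rose by 0.92 ± 0.23 per doubling (adjusted p = 0.033), Loxl1 by 0.71 ± 0.16 (adjusted p = 0.0252) and Loxl2 by 0.64 ± 0.17 (adjusted p = 0.0382). Serpinh1 rose by 0.89 ± 0.12 (adjusted p = 0.00837). Whether slopes differed between members was not tested. The median slope was 1.01 over the 9 members and -0.02 over all genes tested. All 9 slopes stayed positive when any library was left out, but the calls rested on the extreme clones: without C2 only Serpinh1 passed and 77 genes passed in all, and without B3 Col1a2, Col5a1 and Serpinh1 passed, among 364 genes. Without B1, 5 of the 9 members passed, among 478 genes, and without B4 7 did, among 1261. With the column prefix as a term in the fit no gene passed (limma, 2120 genes at unadjusted p under 0.05), and the median slope of the 9 members, all still positive, was 0.58. In that fit the slope was 1.17 for Col1a2, 0.87 for Col3a1 and 0.83 for Col5a1. It was 0.38 for Col5a2, 0.43 for Col5a3, 0.31 for Loxl2 and 0.58 for Serpinh1.

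**Figure D4:**
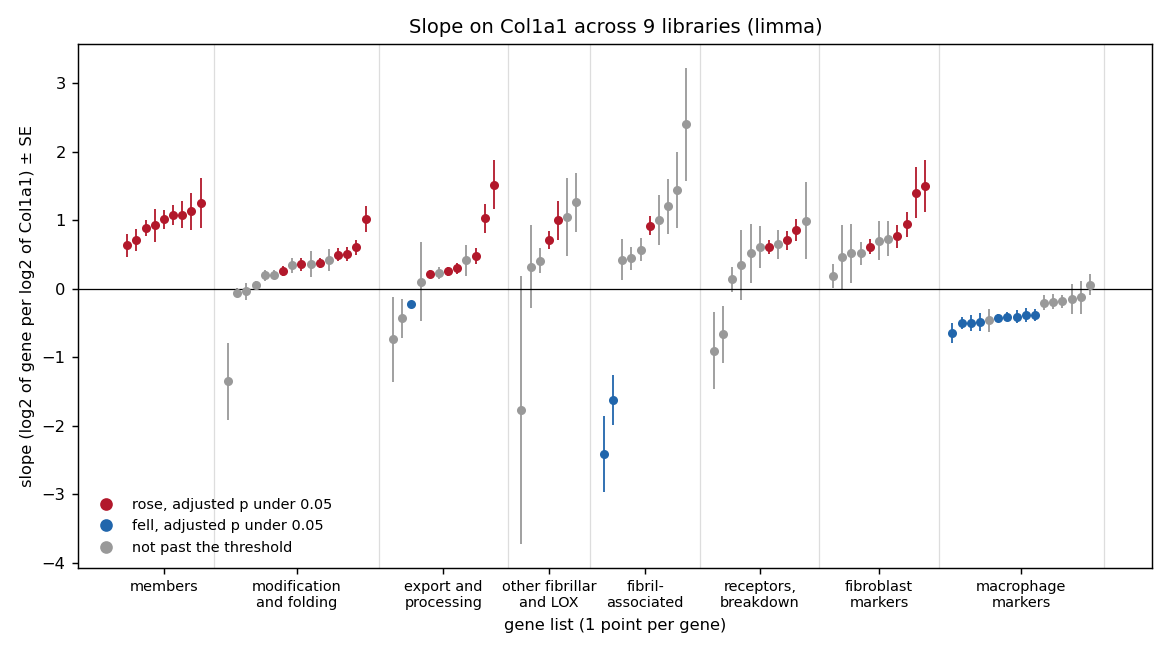
Slope against Col1a1 (y axis, log2 change per doubling of Col1a1) with its standard error over 9 libraries, 1 point per gene, for the members, 5 collagen lists and the fibroblast and macrophage markers (x axis), with red and blue points past an adjusted p under 0.05 (limma). The 9 members lie between 0.64 and 1.25, and the macrophage markers that passed all lie below 0.

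The pairwise relations showed which members kept to Col1a1 within a prefix. In exact permutation tests over the 9 libraries (two-sided, 11 pairs, log2 levels), Col1a1 and Col1a2 had r = 0.935 (p = 0.00039) and rho = 0.90 (p = 0.002). Without B3 and C2, the libraries farthest from the median of Col1a1, r was 0.812, and with B and C levels centred within their prefixes it was 0.925 (exact permutation p = 0.0069). For Col1a1 and Serpinh1, r was 0.933 (exact permutation p = 0.0004) and rho was 0.867 (exact permutation p = 0.0045), and r stayed at 0.916 without those libraries and at 0.932 after centring. Chaperone and collagen therefore moved together also among clones of the same prefix. Col1a1 and Col5a1 had r = 0.931 (exact permutation p = 0.00042) and rho = 0.867 (exact permutation p = 0.0045), with 0.776 without B3 and C2 and 0.864 after centring. For Col3a1, r with Col1a1 was 0.876 (exact permutation p = 0.0015), 0.795 without B3 and C2, and 0.786 after centring (exact permutation p = 0.033). For Col5a2 it was 0.812 (exact permutation p = 0.0078), 0.773 without B3 and C2, and 0.756 after centring (exact permutation p = 0.059). The adjusted p-values for these relations are those of the fit across all genes above.

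For the lysyl oxidases the correlation with Col1a1 did not pass once the extreme clones were left out. Lox had r = 0.795 (exact permutation p = 0.011) and rho = 0.70 (exact permutation p = 0.043), and r fell to 0.452 without B3 and C2 (exact permutation p = 0.30). Loxl1 had r = 0.825 (exact permutation p = 0.0069) and rho = 0.733 (exact permutation p = 0.031), and r fell to 0.437 without those libraries (exact permutation p = 0.32). Loxl2 had r = 0.786 (exact permutation p = 0.01) but rho = 0.633 (exact permutation p = 0.076), with r = 0.615 without those libraries (exact permutation p = 0.14). Leaving out the extremes of Col1a1 narrows its range, which can lower r, but the part of this in the lower values was not tested. The slopes of these 7-library fits were 0.61 for Lox, 0.31 for Loxl1 and 0.68 for Loxl2, and none passed. The slope of Loxl2 was thus no smaller than over all 9 libraries, whereas those of Lox and Loxl1 were smaller (0.92 and 0.71 over all 9).

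Within type V, Col5a1 and Col5a2 were tied closely. Their r was 0.873 (exact permutation p = 0.0024) and rho 0.95 (exact permutation p = 0.00035) over all libraries, and r was 0.974 within B and 0.936 within C (n = 4 each, as a description). Col5a3 behaved otherwise: its r with Col5a1 was 0.764 (exact permutation p = 0.015) with rho = 0.867 (exact permutation p = 0.0045), and within prefixes it was -0.512 in B and 0.90 in C. After centring, r for this pair was 0.344 (exact permutation p = 0.41). With Col1a1, the r of Col5a3 was -0.376 within B and 0.817 within C. The relation of Col5a3 to Col5a1 and Col1a1 was thus not positive among the 4 B libraries. In the fit of all genes against Col5a1, 1414 genes passed (9.62%; limma), 642 of them rising (4.37%) and 772 falling (5.25%), and 8 of the 9 other members rose. Col5a3 had a slope of 1.10 ± 0.30 and missed the threshold (adjusted p = 0.0512). Without B3 no gene passed in this fit (limma, 3239 genes at unadjusted p under 0.05), and without C2, B1, B4 or B2 the numbers were 109, 369, 892 and 930. Of the 9 other members, 0 passed without B3 or without C2, and 6 passed without B1.

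No member passed the test against the Mettl3 transcript. Against log2 Mettl3, 386 genes passed (2.63%; limma), 53 rising (0.360%) and 333 falling (2.26%), and 0 of the 10 members did. The largest member slope was 0.79 ± 0.43 for Col5a3, with adjusted p = 0.432. The unadjusted threshold was passed by 2203 genes. This fit rests on library A: without it the slopes of all 10 members were negative, from -4.06 for Col5a2 to -1.67 for Col1a2, none passed, and no gene passed (limma, 1634 genes at unadjusted p under 0.05). Among the remaining libraries Mettl3 itself divided by prefix, at 515 to 621 in B and 468 to 502 in C. Slopes on Mettl3 and differences between the prefixes therefore cannot be told apart there. With the column prefix as a term in the fit over all libraries, 4 of the 10 member slopes were positive and none passed.

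Other genes of the collagen pathway were read against Col1a1 from 5 lists. Of the 16 enzymes and chaperones that modify and fold the chains, 7 rose, 0 fell and 9 did not pass. The largest slope among those that rose was that of P4ha2, a prolyl hydroxylase subunit that stabilises the helix, at 1.02 ± 0.19 (adjusted p = 0.0164). Fkbp10, a prolyl isomerase chaperone, rose by 0.60 ± 0.11 (adjusted p = 0.0154). Plod2, the lysyl hydroxylase that prepares telopeptide lysines for crosslinking, rose by 0.51 ± 0.10 (adjusted p = 0.0171). Plod1, which acts on helical lysines, had a slope of -0.06 and did not pass. The other 4 that rose were P4ha1, P3h1, Plod3 and Fkbp14. The median slope of this list was 0.35.

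Of 12 tested genes of procollagen export and processing, 6 rose and 1 fell, with a median slope of 0.24. Adamts2, which removes the amino-terminal propeptide, rose by 1.52 ± 0.36 per doubling of Col1a1 (adjusted p = 0.0276). Pcolce, which enhances removal of the carboxy-terminal propeptide, rose by 1.03 ± 0.22 (adjusted p = 0.0207). Bmp1, the protease that Pcolce assists, had a slope of 0.42 and did not pass (adjusted p = 0.228). The export genes that rose were Mia3 (TANGO1), Sec23a and Sec24d, with the transcription factor Creb3l1. Mia2 fell by 0.22 (adjusted p = 0.0174).

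Among 7 other fibrillar collagen and lysyl oxidase genes, Loxl3 rose by 0.71 ± 0.13 (adjusted p = 0.0144) and Loxl4 also rose (adjusted p = 0.0456), and the 5 collagen genes did not pass. Of 10 fibril-associated genes, Col16a1 rose by 0.92 ± 0.13 (adjusted p = 0.01), 2 fell and 7 did not pass. Those that fell were the small leucine-rich proteoglycans Dcn (-1.62 ± 0.36, adjusted p = 0.0241) and Lum (-2.41 ± 0.55, adjusted p = 0.0257), which coat collagen fibrils. Lum was rare, at 0 to 47 reads and above the counting limit in 6 of 9 libraries, so its slope depends on the pseudocount. Neither gene passed without B1, without B3 or without C2. Of 11 genes for collagen receptors, uptake and breakdown, 3 rose: the collagen receptor Ddr2 by 0.61 (adjusted p = 0.0125), the uptake receptor Mrc2 by 0.86 (adjusted p = 0.0162) and the membrane-bound collagenase Mmp14 by 0.70 (adjusted p = 0.0171). Over the 5 lists 19 of the 56 genes tested rose and 3 fell, beside 6.24% rising and 7.12% falling among all genes. Without C2 0 of them passed, without B3 only Col16a1 rose, without B1 10 rose and 1 fell, and without A 12 rose and 3 fell.

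Cell type markers were checked because bulk RNA mixes cells. In bulk libraries, fewer cells of a type and less RNA per cell cannot be told apart. All 11 fibroblast markers were above the counting limit in every library, with a summed level of 153002 (B3) to 400873 (A). Of these, 5 (Vim, Pdgfra, Pdgfrb, Fbln1 and S100a4) rose with Col1a1 and 6 did not pass, beside 6.24% rising among all genes. Col1a1, Col1a2, Col3a1, Dcn, Lum and Fn1, which also mark fibroblasts, were left out of this list because they are described above. Among them, Col1a2 and Col3a1 rose with Col1a1, Dcn and Lum fell, and Fn1 did not pass. All 16 macrophage markers were also above the counting limit in every library, with a summed level of 583989 (C2) to 918580 (C4), although the clones were labelled as fibroblasts. Of the macrophage markers, 9 fell with rising Col1a1, 0 rose and 7 did not pass, beside 7.12% falling among all genes. Those that fell included the CSF1 receptor Csf1r (-0.65, adjusted p = 0.0251) and the signalling adaptor Tyrobp (-0.43, adjusted p = 0.00974). Without C2, 1 fibroblast marker rose and 0 macrophage markers fell, without B3 these counts were 0 and 1, and without B1 they were 2 and 2. With the column prefix as a term in the fit, 0 markers of either list passed. The summed macrophage level varied 1.57-fold over the libraries, the summed fibroblast level 2.62-fold and the summed level of the members 4.22-fold. The part of the mixture of cells in the differences between clones was not tested.

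**Figure D5:**
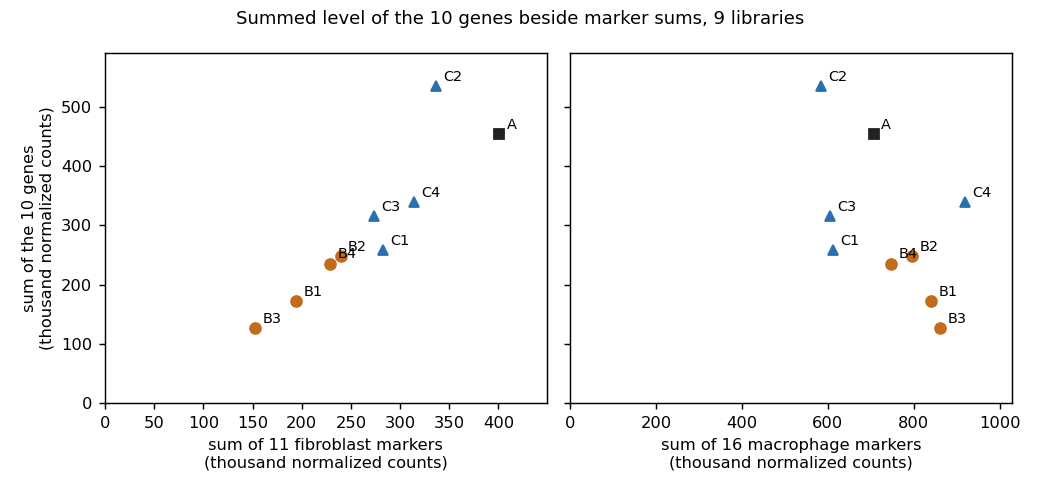
Summed level of the 10 members (y axis, in units of 1000 normalised read counts) against the summed level of 11 fibroblast markers (left, x axis) and of 16 macrophage markers (right, x axis), 1 point per library. B3 is lowest on the y axis and on the fibroblast axis, and A is highest on the fibroblast axis. C2 is highest on the y axis and lowest on the macrophage axis, and C4 is highest on the macrophage axis.

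Markers of other cell types were summed in the same way. Sums of different lists were not ranked against each other, because the lists differ in size and transcript length was not corrected for. Pancreatic stellate cell and pericyte markers, of which 4 of 6 were listed, summed to 1893 (A) to 17455 (C1), and A, with the lowest sum, was among the clones with the most collagen. Epithelial markers summed to 20 to 314 with Epcam at 0 in every library. Acinar markers summed to 144 to 2415, endothelial markers to 156 to 429, mesothelial markers to 0 to 1200, chondrocyte markers to 109 to 3948 with Acan at 0, and osteoblast markers to 550 to 709. Those with enough counts to be tested were 4 stellate cell and pericyte, 3 epithelial, 6 acinar, 3 endothelial, 4 mesothelial, 4 chondrocyte and 2 osteoblast markers. Of the markers tested, 0 rose with Col1a1 and 1 (the mesothelial Lrrn4) fell, beside 6.24% rising and 7.12% falling among all genes. Of the 4 mesothelial markers, 0 were above the counting limit in every library, so the slope of Lrrn4 depends on the pseudocount.

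By Pearson's r with log2 Col1a1 over the 9 libraries, as a description, the genes most like it were Kif2a (0.981), Naalad2 (0.975) and Fbxo17 (0.973), and those most opposed were Dtd1 (-0.977), Asb13 (-0.976) and Ankrd13d (-0.975). Among 14704 genes ordered by r, Col1a2 was number 63, Serpinh1 number 65 and Col5a1 number 68. Col3a1 was number 295, and the remaining members stood between 658 (Loxl1) and 1294 (Col5a3).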

How the data were processed

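RNA from 9 MPC clones was sequenced as poly(A)-selected stranded libraries. The submitters' processing notes list FastQC 0.11.9, STAR 2.7.10, RSEM 1.3.3 and GRCm38, and the annotation and scaling tool are not given in the sources used here. The deposited values were log2 of a read count times 1 scaling factor per library plus 4, undone here as 2 to the value minus 4. In the deposited table, 6 further columns held libraries of other studies and were not used. Deposited values were whole multiples of 1 read (tolerance 0.1 read, up to 1000 reads), which gave the depths.

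Genes with a mean of at least 10 normalised counts were fitted on log2(value + 1) with limma 3.58.1 (trend) in R 4.3.3 against log2 Col1a1, Col5a1 or Mettl3, with Benjamini-Hochberg adjustment over all genes. A slope understates changes of low genes. Correlations used exact permutation of the 9 libraries (scipy 1.17.1). The fit against Col1a1 was also run on simulated data, with independent noise for each gene and library. That simulation held no difference between prefixes, so it does not bear on calls that depend on prefix. The most similar pair of libraries differed beyond counting noise (chi-square per degree of freedom 22.6, 15353 genes), so none was counted as a repeat of the same library. This comparison cannot show whether libraries share a tumor or a mouse. Nothing states that clones came from separate mice, so p-values measure the spread between these clones only. Symbols were matched for 18033 of 18049 identifiers. The members and all gene lists were chosen with earlier results of these data known, and the named genes are the members, the listed genes, Mettl3 and the genes most like Col1a1. Promoters were from RefSeq (GRCm38.p6). Alternatives covered the pseudocount, filter, rescaling, trend, voom on recovered reads, prefix and leaving out libraries.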

Additional observations from a re-analysis of the deposited data

Results flagged for a closer look

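Of 68 genes examined over the 9 libraries, 9 had a highest or lowest library whose gap to its nearest neighbour passed Dixon's 95% critical value. Chance would give 3.4 if levels were normally distributed. The gaps were taken on counts without a log, and each one flagged was at the highest library. An excess over chance therefore cannot be read from these numbers. None of the 10 members was among the 9 genes. Mettl3 had the largest gap, 0.911 of its range, with 2184 normalised counts in A and at most 621 elsewhere. The gap was 0.689 for P3h2 (55.99 in B1, next 18.93), 0.647 for Lum (68.0 in B3, next 23.97), 0.607 for Sec13 (4143 in A, next 3172) and 0.596 for Col2a1 (3760 in B1, next 1519). It was 0.582 for Ppib (7051 in A, next 5524), 0.556 for Itga2 (set by B2), 0.533 for Plod3 (8786 in C2, next 6509) and 0.503 for Fn1 (432500 in C2, next 316200).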

How the results depend on the processing

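All member slopes against Col1a1 and against Col5a1 stayed positive under every alternative run, and none of the results with a call reversed. Counts of genes past the threshold depended on single clones: leaving out each library in turn (all but the shallowest chosen after seeing the data) gave 77 to 2463 genes for Col1a1, 0 to 1757 for Col5a1 and 0 to 494 for Mettl3. The lowest counts came without C2 for Col1a1, without B3 for Col5a1 and without A for Mettl3. With prefix as a factor 0 genes passed in each of the 3 limma fits (2120, 1613 and 358 at unadjusted p under 0.05), and without the 2 libraries farthest from the median of the covariate again 0 (2423, 1980 and 2264). For Col5a1, limma without a trend gave 784 genes, and for Mettl3, voom on recovered reads gave 60. Without B3 and C2, r with Col1a1 was 0.71 for Col5a3, 0.452 for Lox, 0.437 for Loxl1 and 0.615 for Loxl2. Centred within prefixes, r with Col1a1 was 0.756 for Col5a2, 0.396 for Col5a3, 0.677 for Lox, 0.646 for Loxl1 and 0.477 for Loxl2, and r of Col5a1 with Col5a3 was 0.344. These alternatives use fewer libraries or remove the difference between prefixes. The slope of Col5a3 against Col1a1 lost its call under most alternatives. Rescaling moved no library by more than 0.068 log2 units (upper quartile). No paired analysis was possible because the labels place every clone under WTg, and numbers within the column names have no stated meaning.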
